A study of Mus musculus with 12 samples.

Results

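The liver transcriptome of mice given a high fat diet with N-acetylcysteine (NAC_HFD) was compared with that of mice on a normal diet (NFD). The comparison takes the 4 NAC_HFD and the 4 NFD libraries, 8 of the 12 in the series, from the gene and transcript tables, and it was read over the 11376 of 19252 genes that reached 1 TPM in at least 4 of the 12 libraries. TPM, the transcript abundance that RSEM writes, is a length-corrected share of a library's reads. All mice were C57BL/6, a common inbred laboratory strain, and all libraries were made from total RNA of liver. The labels give 14 weeks of feeding, an age of 8 weeks that is not tied to the start or the end of feeding, and, for NAC_HFD, N-acetylcysteine at 2 g per litre of the daily drinking water. The remaining 4 libraries came from mice on the high fat diet alone (HFD). They entered the estimate of the spread between libraries, and their levels are given beside the others because HFD and NAC_HFD are both read against the same NFD libraries. No test of NAC_HFD against HFD is reported here, nor the share of all genes in which these groups do not overlap. Where a named gene lies apart from HFD, that is a description of its levels. NAC_HFD and NFD differ in the diet and in the drinking water at once, so the part of each in a difference cannot be told apart from these 2 groups. No source used here states the fat content of the diet, the sex of the mice, whether they fasted before sampling, or whether each library is 1 animal, so p-values measure the spread between these libraries.

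N-acetylcysteine is taken up and deacetylated to cysteine, the amino acid that usually limits the synthesis of glutathione, the main thiol antioxidant of the liver. Hepatocytes on a high fat diet take up more fatty acid than they burn or export and store the rest as triglyceride in lipid droplets. Chaperones of the cytosol and of the endoplasmic reticulum fold new and damaged proteins, the former under the transcription factor HSF1 and the latter under the unfolded protein response.

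Mean correlation with the other libraries of the group, on log2(TPM + 1), lay between 0.978 and 0.985 in the 8 libraries and was lowest in NFD replicate 3. Genes at 1 TPM or more numbered 10864 to 11071 in NAC_HFD and 10958 to 11247 in NFD (exact two-sided permutation test of the means, p = 0.114; 0.0286 is the smallest p that 4 against 4 allows). Mitochondrially encoded genes took 10.9 ± 1.08% of the gene table in NAC_HFD and 10.5 ± 1.55% in NFD (SD, n = 4 each; exact permutation p = 0.686). Hepatocyte markers such as Alb and Apoa1 were at 67164 to 90000.5 TPM in sum in NAC_HFD and at 71600.2 to 79625 TPM in NFD. Fewer lncRNA transcripts reached 0.1 TPM in NAC_HFD, 21341 to 21864 against 22293 to 23313 in NFD, without overlap (exact permutation p = 0.0286, the smallest possible; 0.143 after Benjamini-Hochberg adjustment over 5 library values). The tables hold no read counts, from which depth could be known.

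More genes were lower than higher in NAC_HFD. In limma's moderated test across all genes, 601 of 11376 genes passed an adjusted p of 0.05 (5.28%), 200 of them higher (1.76%) and 401 lower (3.52%) in NAC_HFD. Before adjustment, 2574 genes had p below 0.05 (22.6%), the background for the unadjusted counts of the lists without a call. The median log2 fold change was 0.59 among the genes called higher and −0.54 among those called lower, and 23 and 22 of them passed 1 log2 unit. In 548 of the called genes (4.82% of all tested) the 4 NAC_HFD libraries did not overlap the 4 NFD libraries. The balance of directions moved with the scaling of the libraries: 363 genes were called higher and 269 lower with median-of-ratios scaling, 314 and 294 with quantile normalization, and 182 and 496 with TPM rescaled to an equal total within the gene table. Over all genes the median log2 fold change was −0.07 as deposited and −0.004 under median-of-ratios scaling, and 421 of the 601 calls were kept under all 3 other scalings. As deposited, 37.5% of all genes tested had a positive fold change, the background for the counts of list members by sign. The count of calls rests on single libraries too: it was 252 without NFD replicate 1, 295 without NFD replicate 3, 243 without NAC_HFD replicate 3 and 211 without NAC_HFD replicate 4, and 153 of the 601 genes were called whichever of the 8 libraries was left out.

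**Figure D1:**
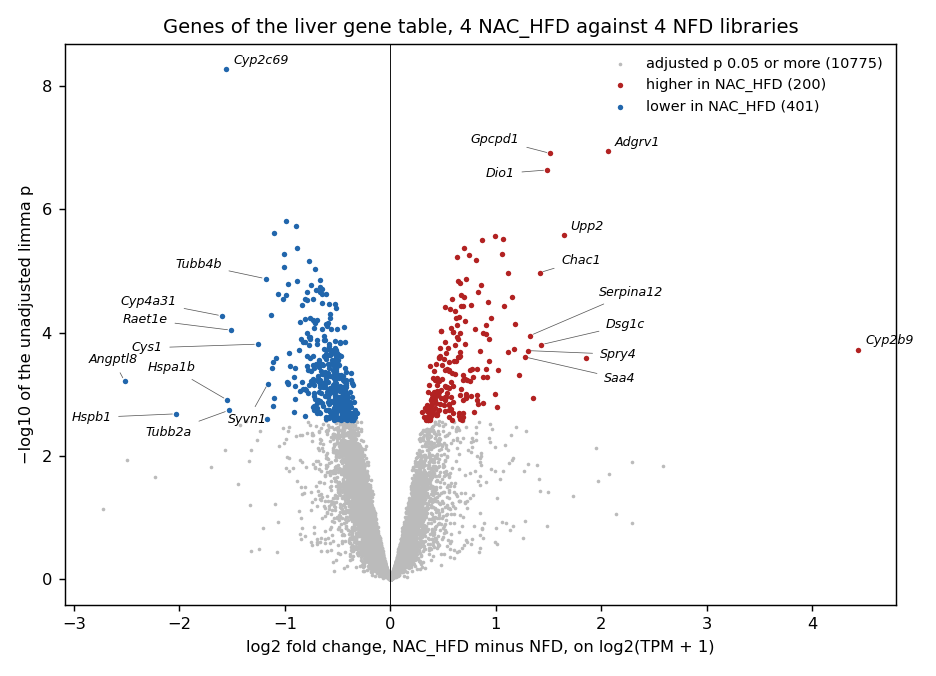
Each point is 1 of 11376 genes, with the log2 fold change of NAC_HFD against NFD on the x axis and the −log10 of the unadjusted limma p on the y axis. Red points are the 200 genes called higher and blue points the 401 called lower, grey points did not pass, and Cyp2b9 at 4.44 lies farthest to the right and Angptl8 at −2.52 farthest to the left of the called genes.

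The 10 highest called fold changes without overlap included 5 enzymes, an adhesion receptor, a desmosomal cadherin and secreted and signalling proteins. Cyp2b9 (ENSMUSG00000040660, chromosome 7, 26173350 to 26210661), a cytochrome P450 of the phenobarbital-inducible family, was at 0.230, 0.390, 0.190 and 1.22 TPM in NFD replicates 1 to 4 and at 27.7, 5.95, 104 and 46.7 TPM in NAC_HFD. All NAC_HFD libraries lay above all NFD libraries, with NAC_HFD replicate 2 the lowest of them and replicate 3 the highest. The HFD libraries held 20.5 to 99.3 TPM (log2 fold change 4.44 with an SE of 0.77, adjusted p = 0.0158). Reads of close Cyp2b relatives can be split differently by the authors' quantification, so the level of Cyp2b9 is less certain than its direction, and Cyp2b10 of the same family averaged 0.998 ± 0.475 and 1.45 ± 0.959 TPM (SD, n = 4 each) and did not pass (adjusted p = 0.615).

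Adgrv1 (ENSMUSG00000069170, chromosome 13, 81095068 to 81633391), a very large adhesion receptor, stood at 1.37, 0.890, 0.810 and 0.770 TPM in NFD and at 12.4, 5.92, 5.17 and 6.62 TPM in NAC_HFD. The groups were far apart, with NAC_HFD replicate 1 the highest (log2 fold change 2.06 with an SE of 0.21, adjusted p = 0.000469). Upp2 (ENSMUSG00000026839, chromosome 2, 58566317 to 58795846), a uridine phosphorylase of liver, rose from 125, 98.2, 56.1 and 104 TPM to 225, 291, 339 and 317 TPM, and the HFD libraries held 170.3 to 228 TPM, overlapping NAC_HFD (log2 fold change 1.64 with an SE of 0.21, adjusted p = 0.00328).

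Gpcpd1 (ENSMUSG00000027346, chromosome 2, 132529082 to 132578248), which splits glycerophosphocholine into choline and glycerol phosphate, was 2.95 times as high in NAC_HFD. Its NFD libraries held 25.1, 21.4, 17.4 and 20.4 TPM, its HFD libraries 31.6, 24.2, 33.6 and 43.5 TPM and its NAC_HFD libraries 59.4, 56.5, 73 and 59.2 TPM. No NAC_HFD library of Gpcpd1 came down to the level of any NFD or HFD library (log2 fold change 1.52 with an SE of 0.16, adjusted p = 0.000469). Dio1 (ENSMUSG00000034785, chromosome 4, 107291465 to 107307168), the deiodinase that makes active thyroid hormone in liver, was at 27.8, 38.7, 21.1 and 32.3 TPM in NFD. In NAC_HFD, Dio1 held 102, 84.9, 76.7 and 74.4 TPM. The HFD libraries of Dio1 were as high or higher, at 93 to 119.8 TPM (log2 fold change 1.49 with an SE of 0.16, adjusted p = 0.000652 for NAC_HFD against NFD).

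Chac1 (ENSMUSG00000027313, chromosome 2, 119351242 to 119354326), an enzyme that breaks glutathione down and a known target of the ATF4 stress response, was at 1.45, 0.430, 0.190 and 0.710 TPM in NFD. In NAC_HFD, Chac1 held 2.41, 2.81, 3.78 and 4.82 TPM, with no overlap (log2 fold change 1.42 with an SE of 0.21, adjusted p = 0.0053). Saa4, a constitutive serum amyloid A protein carried on HDL, rose from 76.9 ± 10.2 to 198 ± 80.3 TPM (SD, n = 4 each), and HFD was at 241 TPM on average (log2 fold change 1.27, adjusted p = 0.0171). Serpina12, the secreted serine protease inhibitor vaspin, rose from 4.67 ± 1.65 to 13.5 ± 5.08 TPM (1.32, adjusted p = 0.0126), and its call ended with a spread taken from the 8 libraries alone (adjusted p = 0.0501). Spry4, an inhibitor of receptor tyrosine kinase signalling, rose from 2.82 ± 1.01 to 8.56 ± 3.27 TPM (1.30, adjusted p = 0.0158), and the desmosomal cadherin Dsg1c from 1.15 ± 0.537 to 4.99 ± 2.28 TPM (1.43, adjusted p = 0.0141). Each of these 10 genes passed with any 1 of the 8 libraries left out and under the 3 other scalings.

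Among the genes called lower, the largest falls included a triglyceride-regulating hormone, chaperones, tubulins and several P450 genes. Angptl8 (ENSMUSG00000047822, chromosome 9, 21835510 to 21837347), a hormone of fed liver that limits lipoprotein lipase in other tissues, was at 163, 177, 98.4 and 153 TPM in NFD. In NAC_HFD, Angptl8 held 60.6, 26.4, 18 and 11.8 TPM, a 5.06-fold lower mean. The groups of Angptl8 did not overlap, and HFD was at 21.2 to 85 TPM (log2 fold change −2.52 with an SE of 0.52, adjusted p = 0.0248). Its call ended without NFD replicate 1 or 2 or NAC_HFD replicate 3 or 4 (0.0551 to 0.0694), where the adjusted p is in parentheses.

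Cyp2c69 (ENSMUSG00000092008, chromosome 19, 39842660 to 39886769), a P450 of the sex-biased Cyp2c cluster, had the smallest p of all genes. Its NFD libraries held 2.43, 2.42, 1.78 and 2.95 TPM and its NAC_HFD libraries 0.03, 0.07, 0.180 and 0.330 TPM, and the HFD libraries were also low, at 0.120 to 0.290 TPM (log2 fold change −1.55 with an SE of 0.12, adjusted p = 6.12e-05). Cyp2c69 reached the floor of 1 TPM only in the NFD libraries, so it was tested because NFD was high. Its rank by p is a description for that reason. Cyp4a31 (ENSMUSG00000028712, chromosome 4, 115563627 to 115579015), a fatty acid hydroxylase of the PPARalpha-regulated Cyp4a cluster, fell from 46.8, 26.4, 57.3 and 59 to 17.4, 14.5, 11.3 and 14.6 TPM (log2 fold change −1.60 with an SE of 0.26, adjusted p = 0.0092). Both belong to clusters of near-identical genes, so reads could be shared with neighbours. Raet1e, a stress-induced ligand of the NKG2D receptor, fell from 4.99 ± 1.69 to 1.13 ± 0.674 TPM (−1.51, adjusted p = 0.0113), and the ciliary protein gene Cys1 from 6.32 ± 3.48 to 1.86 ± 0.126 TPM (−1.25, adjusted p = 0.0141). Syvn1, the ubiquitin ligase of degradation at the endoplasmic reticulum, was at 176, 152, 108 and 98.1 TPM in NFD and 137, 121, 167 and 131 TPM in the HFD libraries. In NAC_HFD, Syvn1 held 77.1, 78.4, 34 and 53.3 TPM (log2 fold change −1.16 with an SE of 0.26, adjusted p = 0.026), and its call ended without NFD replicate 1 or 2 or NAC_HFD replicate 4 (0.0576 to 0.0715).

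**Figure D2:**
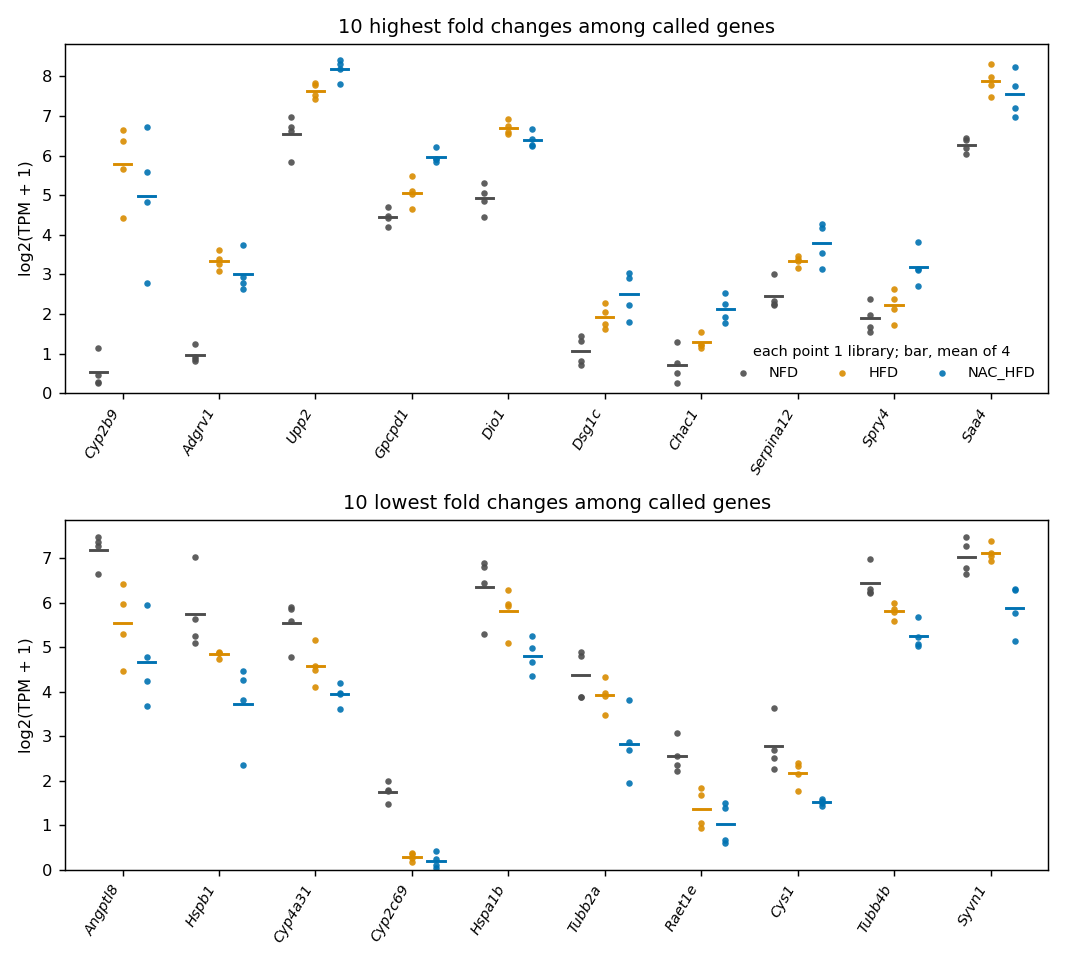
Each point is 1 library on a log2(TPM + 1) axis and each bar the mean of 4, for the 10 highest (upper panel) and 10 lowest (lower panel) fold changes among genes called between NAC_HFD (blue) and NFD (grey), with HFD (orange) beside them. In every gene drawn the blue and grey points do not overlap, since the choice of genes asked for that; orange lies beside blue for Cyp2b9, Dio1 and Cyp2c69 and beside grey for Syvn1.

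Cytosolic heat shock genes were lower as a group. Of 22 tested genes of the cytosolic chaperone list, 12 were called lower and none higher, against 3.52% of all genes called lower, 21 of 22 had a negative fold change, and the list's median log2 fold change was −0.53 (−0.45 and 11 called lower under median-of-ratios scaling), beside −0.07 over all genes. The members called are the small heat shock protein Hspb1, the HSP70 proteins Hspa1b and Hspa8, the HSP110 proteins Hsph1 and Hspa4l, the HSP90 Hsp90aa1, the HSP40 partners Dnajb1, Dnaja1 and Dnaja4, and the cochaperones Bag3, Stip1 and Chordc1. Hspa1a, nearly identical in sequence to Hspa1b, averaged 2.52 ± 1.68 TPM in NFD and 1.43 ± 0.623 TPM in NAC_HFD and did not pass (adjusted p = 0.439), and the split of reads between this pair is uncertain.

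Hsph1, which exchanges nucleotide on HSP70, was at 118, 96.1, 139 and 112 TPM in NFD and 75.4, 74.4, 83.7 and 78.3 TPM in the HFD libraries. In NAC_HFD, Hsph1 held 60.6, 80.2, 46 and 52.3 TPM. Every NAC_HFD library lay below every NFD library (log2 fold change −0.97 with an SE of 0.15, adjusted p = 0.00601). Hspa8, the constitutive HSP70, was the most abundant of the group and fell from 2072, 2262, 2682 and 1770.3 TPM to 1491, 1591, 990.0 and 1152 TPM (log2 fold change −0.76 with an SE of 0.16, adjusted p = 0.0173). Hspa4l fell by 1.75-fold (log2 fold change −0.74, adjusted p = 0.0096) and Bag3, an HSP70 cochaperone of protein aggregate clearance, by 1.79-fold (−0.79, adjusted p = 0.0118).

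Hspb1 was at 48.7, 37, 128 and 33.2 TPM in NFD and 28, 28.5, 28.4 and 25.5 TPM in the HFD libraries. In NAC_HFD, Hspb1 held 18.1, 21, 4.10 and 12.9 TPM (log2 fold change −2.03 with an SE of 0.50, adjusted p = 0.0442). NFD replicate 3 was far above the other NFD libraries and NAC_HFD replicate 3 far below the other NAC_HFD libraries. Hspa1b was at 111, 38, 85.4 and 118 TPM in NFD. In NAC_HFD, Hspa1b held 19.4, 37.1, 24.2 and 30.5 TPM (log2 fold change −1.55 with an SE of 0.36, adjusted p = 0.0335). The remaining called members fell by 0.50 to 0.91 on the log2 scale, from Dnaja1 (adjusted p = 0.0337) to Hsp90aa1 (adjusted p = 0.0331).

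Of the 12 heat shock calls, 10 were kept under all 3 other scalings and 2 were lost under at least 1 of them. Those of Hsph1, Hspa4l and Bag3 were kept whichever library was left out. The others ended without single libraries, with adjusted p in parentheses: Hspb1 without NFD replicate 1, 2 or 3 or NAC_HFD replicate 1, 3 or 4 (0.0517 to 0.0955), Hspa1b without NFD replicate 1, 3 or 4 or NAC_HFD replicate 1, 3 or 4 (0.0639 to 0.0875), Hspa8 without NAC_HFD replicate 4 (0.0553) and Chordc1 without NFD replicate 1 or NAC_HFD replicate 3 or 4 (0.0505 to 0.0589). The call of Dnajb1 ended without NFD replicate 1 or 3 or NAC_HFD replicate 1 or 3 (0.057 to 0.0759), that of Dnaja4 without NFD replicate 1, 2 or 3 or NAC_HFD replicate 3 or 4 (0.0559 to 0.0945) and that of Dnaja1 without NFD replicate 1 or 3 or NAC_HFD replicate 1, 3 or 4 (0.0611 to 0.0987). Hsp90aa1 lost its call without NFD replicate 1, 2 or 3 or NAC_HFD replicate 3 or 4 (0.0545 to 0.0932), and Stip1 without NFD replicate 1, 2 or 3 or NAC_HFD replicate 3 or 4 (0.0597 to 0.089).

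Tubulins, the subunits of microtubules, were grouped after their values had been seen, so their count is a description. Of 10 tested, 5 were called lower, against 3.52% of all genes, none was called higher, and the median log2 fold change was −0.50. Tubb4b was at 74.5, 78.5, 125 and 73.1 TPM in NFD. In NAC_HFD, Tubb4b held 50.5, 31.7, 32.6 and 36.4 TPM (log2 fold change −1.18 with an SE of 0.18, adjusted p = 0.00586). NFD replicate 3 was highest of all, and the groups did not overlap without it either. Tuba1c fell from 43 ± 11.3 to 19 ± 4.89 TPM (−1.13, adjusted p = 0.00888), Tuba4a from 80.6 ± 19.3 to 46.1 ± 4.80 TPM (−0.77, adjusted p = 0.0129), Tubb2a from 20.8 ± 8.18 to 6.93 ± 4.38 TPM (−1.53, adjusted p = 0.0416) and Tubb5 from 27 ± 4.15 to 16.2 ± 3.14 TPM (−0.71, adjusted p = 0.0189). Tubulin genes are alike in sequence, and the call of Tubb2a ended without NFD replicate 1, 2 or 3 or NAC_HFD replicate 2, 3 or 4 (0.059 to 0.105) and that of Tubb5 without NFD replicate 1 or NAC_HFD replicate 3 (0.0531 to 0.0559).

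Some chaperones of the endoplasmic reticulum were lower. Of 29 tested genes of the endoplasmic reticulum stress and ATF4 list, 3 were called lower, against 3.52% of all genes, and none higher, 14 had an unadjusted p below 0.05 (22.6% of all genes), 22 had a negative fold change and the median was −0.31. Most genes tested also had a negative fold change, as only 37.5% of them had a positive one. Chac1, the ATF4 target called higher above, is counted in the glutathione list. Hspa5, the master chaperone BiP of this compartment, was at 1133, 1066, 735 and 579.6 TPM in NFD and 912, 941, 919 and 834 TPM in the HFD libraries. In NAC_HFD, Hspa5 held 585, 573, 449 and 497 TPM (log2 fold change −0.69 with an SE of 0.18, adjusted p = 0.04). NFD replicate 4 lay within the NAC_HFD range, so the groups overlap. Hsp90b1, the HSP90 of the endoplasmic reticulum, fell from 713 ± 141 to 487 ± 57.1 TPM (−0.53, adjusted p = 0.0442) and Sdf2l1, a BiP partner, from 57.2 ± 17.7 to 25.6 ± 9.95 TPM (−1.17, adjusted p = 0.0485), both with overlap.

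None of these 3 calls outlasted the alternatives. Under median-of-ratios scaling the adjusted p was 0.0524 for Hspa5, 0.0562 for Hsp90b1 and 0.0524 for Sdf2l1, where 1 other member of the list, higher in NAC_HFD, was called. With quantile normalization 3 members were called lower and 1 higher. The calls also ended without single libraries: Hspa5 without NFD replicate 1, 2 or 3 or NAC_HFD replicate 2, 3 or 4 (0.0529 to 0.106), Hsp90b1 without NFD replicate 1, 2 or 3 or NAC_HFD replicate 2, 3 or 4 (0.0532 to 0.118) and Sdf2l1 without NFD replicate 1, 2 or 3 or NAC_HFD replicate 3 or 4 (0.0644 to 0.117).

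**Figure D3:**
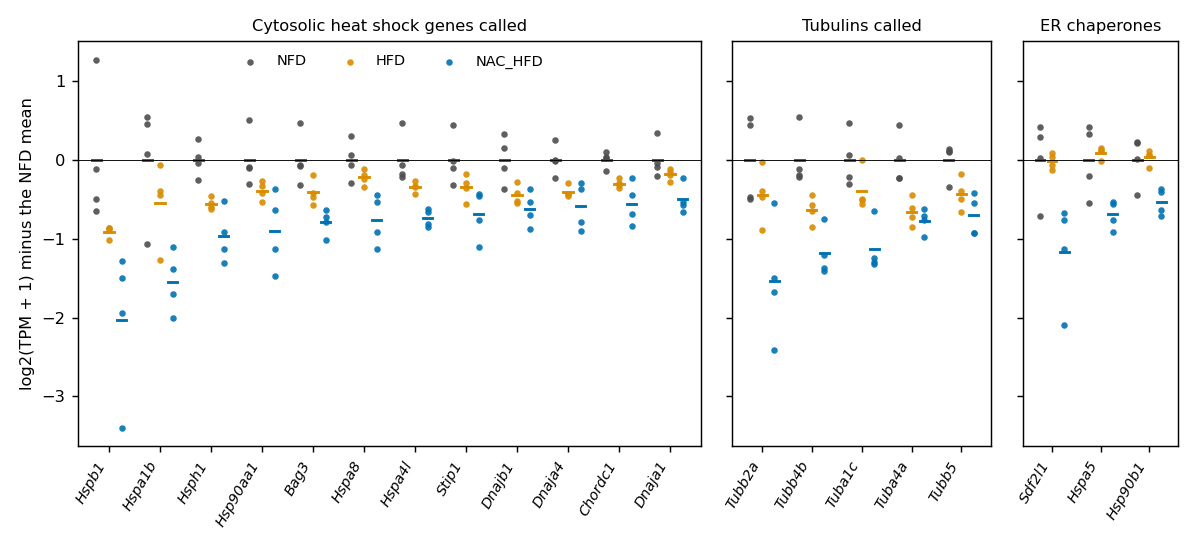
Each point is 1 library and each bar the mean of 4, as log2(TPM + 1) minus the NFD mean of that gene, for the 12 heat shock genes, 5 tubulins and 3 endoplasmic reticulum chaperones called lower in NAC_HFD. The NAC_HFD means (blue) lie between 0.50 and 2.03 log2 units below the NFD means (grey); the HFD means (orange) lie between the other groups for the heat shock genes and tubulins and near the NFD mean for Sdf2l1, Hspa5 and Hsp90b1.

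The start sites of some of these genes carry the letters that HSF1 or the unfolded protein response are known to bind, and they are printed to show which chaperone genes do so. RefSeq promoter windows (GRCm38.p6, 250 bases before to 50 after the start) were searched on both strands for the heat shock element GAANNTTCNNGAA and the endoplasmic reticulum stress element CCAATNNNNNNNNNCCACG. The heat shock element was found in 4 of the 18 heat shock genes with a window (Hsph1, Hspd1, Hspe1 and Chordc1), 2 of them among 10 called, and in 179 of 27025 genes in all (0.662%). The endoplasmic reticulum stress element was found in 7 of 32 genes of the list with a window (Hspa5, Hsp90b1, Pdia6, Calr, Canx, Dnajc3 and Creld2), 2 of them among the 3 called, and in 37 of 27025 genes (0.137%). A match describes the letters only. In the sequences, each written 5′ to 3′ on the gene's strand, capitals mark the fixed letters of a match in either orientation. The stretches are Hsph1, minus strand, chr5:149636287-149636308, with 1 match; Chordc1, plus strand, chr9:18292260-18292288, with 3 overlapping matches; Hspa5, plus strand, chr2:34771840-34772089, with 1 match; and Hsp90b1, minus strand, chr10:86705445-86705694, with 2 matches.
Hsph1: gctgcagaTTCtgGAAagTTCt
Chordc1: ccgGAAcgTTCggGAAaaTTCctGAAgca
Hspa5: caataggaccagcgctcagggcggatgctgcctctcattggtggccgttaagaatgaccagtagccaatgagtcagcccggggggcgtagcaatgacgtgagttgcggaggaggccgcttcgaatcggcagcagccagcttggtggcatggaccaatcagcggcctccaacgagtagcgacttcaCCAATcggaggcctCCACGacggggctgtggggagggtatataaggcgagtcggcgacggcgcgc
Hsp90b1: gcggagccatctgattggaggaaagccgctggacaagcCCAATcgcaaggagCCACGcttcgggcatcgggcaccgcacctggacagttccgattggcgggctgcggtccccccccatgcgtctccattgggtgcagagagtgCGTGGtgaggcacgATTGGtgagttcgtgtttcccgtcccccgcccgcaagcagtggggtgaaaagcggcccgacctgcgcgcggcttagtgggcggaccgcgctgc

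Genes of glutathione metabolism and targets of NRF2, the transcription factor of the antioxidant response, moved in both directions. Of 48 tested, 4 were called higher (Chac1, Cat, Gpx1 and Gstt1) and 3 lower (Gss, Txnrd1 and Nfe2l2), against 1.76% and 3.52% of all genes. These counts were 2 and 5 under quantile normalization, 3 and 4 with TPM rescaled and 4 and 2 under median-of-ratios scaling. A negative fold change was found in 35, where only 37.5% of all genes tested had a positive one. The median was −0.20. Gss, glutathione synthetase, was at 30.7, 31.2, 32.1 and 27.9 TPM in NFD and 21.4, 32.1, 24.4 and 23.2 TPM in the HFD libraries. In NAC_HFD, Gss held 19, 15.2, 18.9 and 20.8 TPM, with no overlap between NFD and NAC_HFD (log2 fold change −0.70 with an SE of 0.12, adjusted p = 0.0096). The subunits of the enzyme before it, Gclc and Gclm, did not pass. Gclc averaged 57.3 ± 18.1 TPM in NFD and 56.3 ± 17.4 TPM in NAC_HFD (adjusted p = 0.955), and Gclm at 107 ± 16.8 and 99.6 ± 13.7 TPM (adjusted p = 0.762).

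Nfe2l2, which encodes NRF2 itself, fell from 29.7, 34.6, 33.8 and 29.1 to 20.3, 22.2, 26.3 and 24.8 TPM (log2 fold change −0.43 with an SE of 0.10, adjusted p = 0.0294), and Txnrd1, thioredoxin reductase, from 54.6 ± 7.03 to 38.1 ± 1.58 TPM (−0.50, adjusted p = 0.0189). The classical NRF2 targets Nqo1 (adjusted p = 0.292) and Hmox1 (adjusted p = 0.255) were not called. A pair of peroxide-removing enzymes was called higher. Catalase, Cat, was at 1408, 1408, 1142 and 1479 TPM in NFD. In NAC_HFD, Cat held 1597, 1819.8, 1913 and 1956 TPM (log2 fold change 0.42 with an SE of 0.11, adjusted p = 0.0335), and Gpx1, glutathione peroxidase 1, rose from 980.3 ± 133 to 1321 ± 155 TPM (0.43, adjusted p = 0.0461). The glutathione transferase Gstt1 rose from 105 ± 23.3 to 169.9 ± 38.2 TPM (0.69, adjusted p = 0.0473), and the groups of Gpx1 and Gstt1 overlapped.

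In this list, Chac1 and Gss were kept whichever library was left out. Txnrd1 lost its call without NAC_HFD replicate 4 (0.053), Nfe2l2 without NFD replicate 1, 2 or 3 or NAC_HFD replicate 1, 2 or 4 (0.0523 to 0.0704), Cat without NFD replicate 1, 2 or 3 or NAC_HFD replicate 2, 3 or 4 (0.052 to 0.0957), Gpx1 without NFD replicate 2, 3 or 4 or NAC_HFD replicate 1, 2, 3 or 4 (0.0537 to 0.12) and Gstt1 without NFD replicate 1, 3 or 4 or NAC_HFD replicate 1, 3 or 4 (0.0553 to 0.128). Other scalings ended the calls of Nfe2l2 (median-of-ratios, 0.0536), Cat and Gpx1 (quantile, 0.115 and 0.151) and Gstt1 (TPM rescaled, 0.0538).

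None of 28 tested genes of cysteine and methionine metabolism was called by limma (8 at an unadjusted p below 0.05), and the median was −0.02. Under median-of-ratios scaling 2 were called higher, 1 of them Cdo1, cysteine dioxygenase, which averaged 749 ± 75 TPM in NFD and 1040.4 ± 258 TPM in NAC_HFD (adjusted p = 0.0967 as deposited and 0.0491 under median-of-ratios scaling). Cth, cystathionine gamma-lyase, which makes cysteine, was at 156, 148, 451 and 204 TPM in NFD. In NAC_HFD, Cth held 96.6, 79.7, 150.3 and 109 TPM. NFD replicate 3 stood above all others and NAC_HFD replicate 3 overlapped the NFD range (log2 fold change −1.01, adjusted p = 0.0774). Csad, which takes cysteine sulfinate towards taurine, averaged 104 ± 52.8 and 37 ± 8.74 TPM (−1.32, adjusted p = 0.0876).

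**Figure D4:**
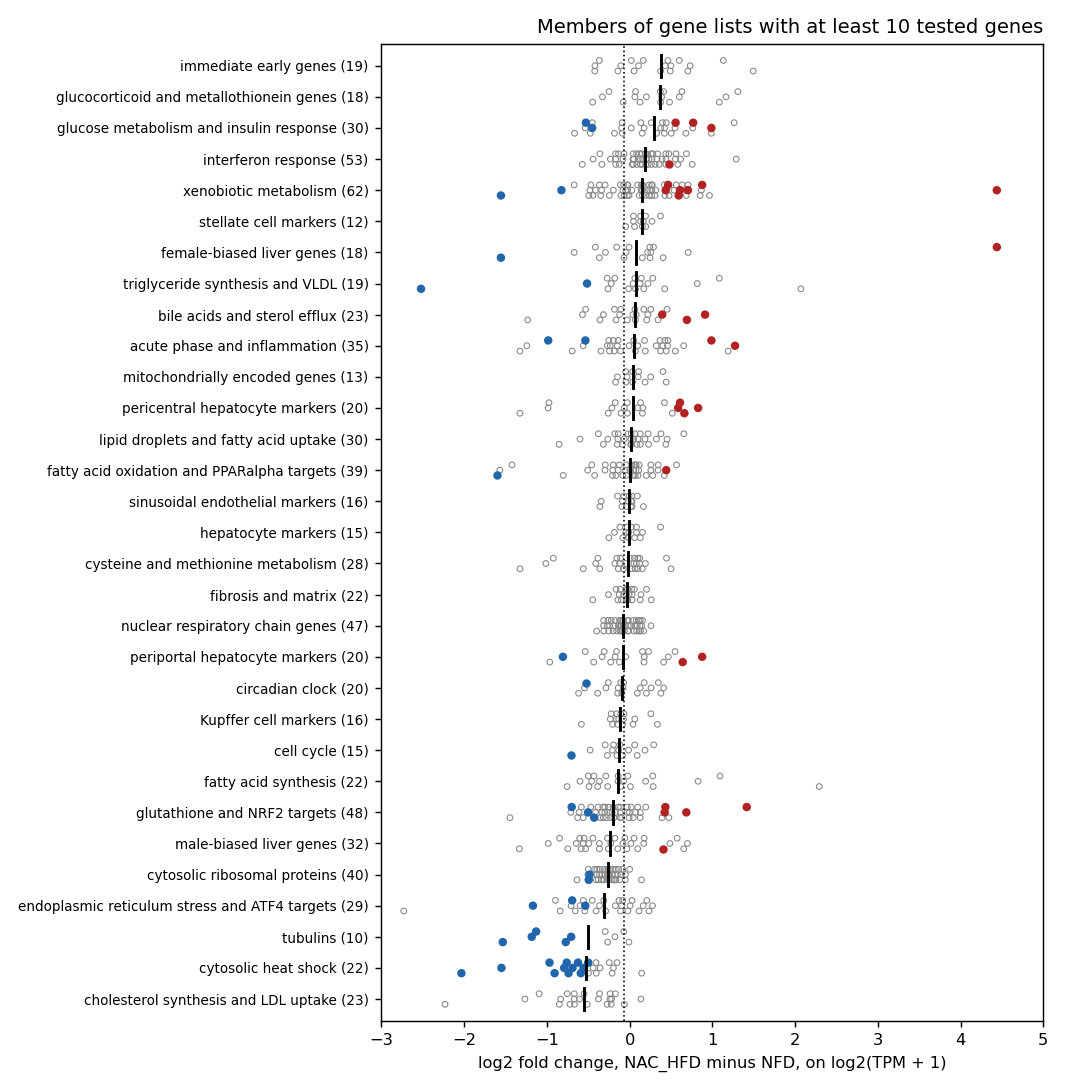
Each circle is the log2 fold change of 1 tested gene on the log2(TPM + 1) scale, in lists with 10 or more tested genes; filled red and blue circles were called higher and lower, and open circles did not pass. Black bars are list medians and the dotted line is the median of all genes, −0.07; the cholesterol synthesis, cytosolic heat shock and tubulin lists lie lowest, at −0.55, −0.53 and −0.50.

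Of the genes of fat storage, those called were Angptl8 and Dgat1, beside 5.28% of all genes called. Limma called none of 30 tested genes of lipid droplets and fatty acid uptake (3 at an unadjusted p below 0.05) and none of 22 of fatty acid synthesis (4 unadjusted). Of 19 genes of triglyceride synthesis and VLDL, these 2 were lower. Dgat1, which adds the last acyl chain to triglyceride, was at 9.82, 9.71, 11.1 and 9.90 TPM in NFD. In NAC_HFD, Dgat1 held 8.47, 5.73, 6.56 and 6.62 TPM, with no overlap (log2 fold change −0.51 with an SE of 0.11, adjusted p = 0.0212); the call ended without NFD replicate 3 or NAC_HFD replicate 3 or 4 (0.0551 to 0.0589). Cd36, a fatty acid transporter, was at 15.9, 16.1, 11.1 and 21 TPM in NFD, 24.5, 12.1, 17.9 and 42.2 TPM in NAC_HFD and 77.8, 69.4, 40.1 and 65.9 TPM in HFD. NAC_HFD overlapped NFD (adjusted p = 0.451), and 3 of the 4 HFD libraries lay above every NAC_HFD library.

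Mogat1, which makes diacylglycerol, averaged 0.282 ± 0.104 TPM in NFD, 0.755 ± 0.297 TPM in NAC_HFD and 2.90 ± 1.22 TPM in HFD (adjusted p = 0.228 for NAC_HFD against NFD). The droplet genes Plin2 (adjusted p = 0.504), Cidec (adjusted p = 0.43) and Fitm1 (adjusted p = 0.124) and the adipogenic receptor Pparg (adjusted p = 0.982) did not pass either. Of the lipogenic genes, Scd1 was at 1618, 2033, 299 and 951 TPM in NFD. In NAC_HFD, Scd1 held 889.5, 2138, 2442 and 4179.9 TPM (adjusted p = 0.348). Thrsp, a thyroid hormone-responsive inducer of lipogenesis, was at 53.9, 138, 6.41 and 23.3 TPM in NFD and 191, 118, 249.6 and 137 TPM in NAC_HFD (2.29, adjusted p = 0.109). Both varied several-fold within NFD, where replicate 3 was lowest, and the groups overlapped in both. The SREBP1 gene Srebf1 (adjusted p = 0.156), Fasn (adjusted p = 0.507), Acaca (adjusted p = 0.808) and Elovl6 (adjusted p = 0.525) were not called.

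In fatty acid oxidation and the targets of PPARalpha, the receptor that induces it, 39 genes were tested. Eci2 was called higher and Cyp4a31 lower, a share near the 5.28% of all genes called, and the median was 0.00. Under median-of-ratios scaling and quantile normalization 3 were called higher and 1 lower. Eci2, an enoyl-CoA isomerase, was at 246, 209, 227 and 265 TPM in NFD. In NAC_HFD, Eci2 held 276, 322, 366 and 325 TPM (log2 fold change 0.44 with an SE of 0.11, adjusted p = 0.0297); its call ended without NFD replicate 1, 2 or 3 or NAC_HFD replicate 2, 3 or 4 (0.0503 to 0.083). Cyp4a14, the classical PPARalpha target of the Cyp4a cluster, was at 1688, 876, 2967 and 2336 TPM in NFD. In NAC_HFD, Cyp4a14 held 528, 249.5, 964 and 1039 TPM and did not pass (−1.57, adjusted p = 0.0873). Cpt1a, the entry step of mitochondrial oxidation, averaged 180.2 ± 26.5 and 183 ± 19.4 TPM (adjusted p = 0.901). Vnn1 (adjusted p = 0.405), Fgf21 (adjusted p = 0.341) and Pdk4 (adjusted p = 0.673), also inducible by PPARalpha, were not called.

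Cholesterol synthesis genes had the lowest median of the lists with 10 or more tested genes but no call. Of 23 tested by limma, 5 had an unadjusted p below 0.05, 22 had a negative fold change (21 under median-of-ratios scaling), and the median was −0.55 (−0.48 under that scaling). Sqle, squalene epoxidase, was at 26.8, 14.9, 12 and 34.6 TPM in NFD. In NAC_HFD, Sqle held 1.94, 0.770, 3.46 and 17.2 TPM (−2.23, adjusted p = 0.146), where NAC_HFD replicate 4 lay within the NFD range and the other 3 below it. Mvd averaged 10.8 ± 4.39 and 4.19 ± 3.10 TPM (−1.27, adjusted p = 0.0737) and Lss averaged 14.1 ± 6.01 and 7.25 ± 2.49 TPM (−0.83, adjusted p = 0.109).

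Genes of sterol efflux were among those called higher. Of 23 tested genes of bile acids and sterol efflux, 3 were called higher (Abcg5, Abcg8 and Mylip) and none lower, against 1.76% and 3.52% of all genes. The median was 0.06, and the 3 called genes are known targets of LXR, the oxysterol receptor. Abcg8 was at 21.8, 22.8, 19.4 and 18.3 TPM in NFD and 33.9, 32.1, 35.5 and 33.7 TPM in the HFD libraries. In NAC_HFD, Abcg8 held 26.7, 34.9, 54.8 and 47.1 TPM (log2 fold change 0.91 with an SE of 0.17, adjusted p = 0.0118). Its partner in the biliary cholesterol pump, Abcg5, was at 23.6, 27.8, 20.2 and 17.6 TPM in the NFD libraries and 32.6, 35, 35.8 and 32.5 TPM in the HFD libraries. In NAC_HFD, Abcg5 held 28.3, 33.2, 49.3 and 37 TPM (log2 fold change 0.69 with an SE of 0.16, adjusted p = 0.0247). In both genes all NAC_HFD libraries exceeded all NFD libraries. These neighbours lie head to head and overlap in the RefSeq positions, so reads of the overlap may be shared.

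Mylip, a ubiquitin ligase, rose from 4.46 ± 0.664 to 6.13 ± 0.256 TPM (0.39, adjusted p = 0.0362). The bile acid enzymes Cyp7a1 (104 ± 46.4 and 85.9 ± 19.3 TPM, adjusted p = 0.804) and Cyp8b1 (233 ± 100 and 97.1 ± 43 TPM, −1.23, adjusted p = 0.0614) did not pass, the latter passing with limma's trend and robust options off (adjusted p = 0.0442). The call of Abcg8 was kept without any 1 library; Abcg5 lost it without NFD replicate 1 or 3 or NAC_HFD replicate 3 or 4 (0.0502 to 0.0651) and Mylip without NFD replicate 1 or 4 or NAC_HFD replicate 1, 2, 3 or 4 (0.0532 to 0.0937).

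Drug-metabolizing genes were higher in part. Of 62 tested genes of xenobiotic metabolism, 7 were called higher (Cyp2b9, Cyp2e1, Por, Nr1i2, Sult5a1, Cyp2j5 and Sult2a8) and 2 lower (Cyp2c69 and Aox1), against 1.76% and 3.52% of all genes. The median was 0.16. Cyp2e1, the ethanol-oxidizing P450, was at 7096, 5891, 5627 and 5898 TPM in NFD and 7956, 6558, 7490.5 and 7560.1 TPM in the HFD libraries. In NAC_HFD, Cyp2e1 held 8937, 9239, 9063 and 10053 TPM. Every NAC_HFD library lay above every NFD and HFD library (log2 fold change 0.61 with an SE of 0.11, adjusted p = 0.00816). Por, the reductase that feeds electrons to these enzymes, rose from 286, 269, 218 and 256 to 447, 509, 340.4 and 394 TPM (log2 fold change 0.71 with an SE of 0.13, adjusted p = 0.00965). Nr1i2, the gene of the xenobiotic receptor PXR, rose from 21.9 ± 4.17 to 33.2 ± 2.08 TPM (0.59, adjusted p = 0.0116), with HFD at 34.9 TPM.

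Aox1, aldehyde oxidase, was at 41.1, 34.7, 46.9 and 42.5 TPM in NFD and 39.7, 49.9, 40 and 38.6 TPM in the HFD libraries. In NAC_HFD, Aox1 held 25.8, 15.4, 28.1 and 23.8 TPM, with NAC_HFD below the other groups throughout (log2 fold change −0.82 with an SE of 0.16, adjusted p = 0.0138). Cyp2j5, a P450 that makes epoxy fatty acids, rose from 268 ± 20.1 to 364 ± 44.1 TPM (0.44, adjusted p = 0.0311) and the sulfotransferase Sult2a8 from 378 ± 58.5 to 519.6 ± 50.3 TPM (0.47, adjusted p = 0.0413); Cyp2j5 lost its call without NFD replicate 1, 3 or 4 or NAC_HFD replicate 3 or 4 (0.0525 to 0.0927) and Sult2a8 without NFD replicate 2, 3 or 4 or NAC_HFD replicate 1, 3 or 4 (0.0519 to 0.113). Sult2a8 was also not called under quantile normalization (adjusted p = 0.0649).

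Of the genes whose liver level is known to differ between the sexes, 1 of 32 male-biased genes was called, beside 5.28% of all genes. It was the steroid dehydrogenase Hsd3b2, higher (0.41, adjusted p = 0.0242), and its call ended without NFD replicate 3 or NAC_HFD replicate 3 (0.0553 to 0.0612). The NAC_HFD libraries were unlike in the male-biased list: its mean log2(TPM + 1) was 8.34 and 8.61 in NAC_HFD replicates 1 and 2, 7.44 and 7.505 in replicates 3 and 4, and 8.02 to 8.27 in NFD. The HFD libraries were unlike too, at 7.22 and 7.48 in replicates 1 and 2 and 8.32 in both of replicates 3 and 4. Of 18 female-biased genes, Cyp2b9 was called higher and Cyp2c69 lower. The mean of the female-biased list lay the other way, at 3.33 and 3.47 in NAC_HFD replicates 1 and 2, 4.10 in both of replicates 3 and 4, and 3.25 to 3.79 in NFD. In HFD it was 4.26 and 4.29 in replicates 1 and 2 and 3.63 and 3.57 in replicates 3 and 4, so both high fat groups were split. Cyp2b9 was also higher in NAC_HFD replicates 3 and 4 than in 1 and 2. Mup21, a major urinary protein, was at 285, 279.8, 239.8 and 205 TPM in NFD. In NAC_HFD, Mup21 held 106, 218, 109 and 100 TPM and did not pass (−0.98, adjusted p = 0.101).

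Hepatocytes differ along the liver lobule, from the periportal end, rich in oxygen and urea synthesis, to the pericentral end, rich in P450 enzymes. Of 20 tested pericentral markers, 10 had a positive fold change, 4 were called higher (Lect2, Slc13a3, Gulo and Cyp2e1) and none lower, against 1.76% and 3.52% of all genes. Their summed level was 12539 to 13745 TPM in NAC_HFD, 8818 to 11036 TPM in NFD and 10301 to 11874 TPM in HFD, and most of it is Cyp2e1. Gulo, the last enzyme of vitamin C synthesis, was at 137, 164, 145 and 147 TPM in NFD and 164, 165, 206 and 189 TPM in the HFD libraries. In NAC_HFD, Gulo held 220.0, 221, 235 and 217 TPM, with NAC_HFD above both (log2 fold change 0.59 with an SE of 0.10, adjusted p = 0.00666).

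Lect2, a secreted hepatokine, rose from 82.6 ± 9.57 to 131 ± 14.1 TPM (0.66, adjusted p = 0.00601), with HFD at 165 TPM, and Slc13a3, a dicarboxylate transporter, from 2.76 ± 0.517 to 5.63 ± 0.270 TPM (0.83, adjusted p = 0.00654), with HFD at 8.29 TPM. Of 20 tested periportal markers, Pigr and Sult5a1 were called higher and Asl lower, against 1.76% and 3.52% of all genes. Pigr, the receptor that carries IgA into bile, was at 508, 526, 501 and 432 TPM in NFD. In NAC_HFD, Pigr held 679, 787, 786 and 819 TPM, without overlap (log2 fold change 0.64 with an SE of 0.10, adjusted p = 0.00586). Sult5a1, a sulfotransferase, rose from 7.34 ± 1.58 to 14.4 ± 3.86 TPM (0.88, adjusted p = 0.0118). Asl of the urea cycle was at 319.9, 373, 745 and 340.4 TPM in NFD. In NAC_HFD, Asl held 257, 224, 272 and 206 TPM (−0.81, adjusted p = 0.0462), with NFD replicate 3 far above the rest; its call ended without NFD replicate 2 or NAC_HFD replicate 1, 2, 3 or 4 (0.0606 to 0.12) and under median-of-ratios scaling (adjusted p = 0.0639) and quantile normalization (adjusted p = 0.0534). In bulk liver RNA, fewer cells of a type and less RNA per cell cannot be told apart.

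In glucose metabolism and the insulin response, 3 of 30 tested genes were called higher (Foxo1, Foxo3 and Pdk2) and 2 lower (Irs1 and Fbp1), against 1.76% and 3.52% of all genes. The median was 0.30. Foxo1, the transcription factor that insulin signalling keeps out of the nucleus, was at 6.90, 8.05, 5.32 and 6.23 TPM in NFD and 9.38, 10.4, 11.6 and 11.5 TPM in the HFD libraries. In NAC_HFD, Foxo1 held 11.5, 12.9, 15.8 and 16.4 TPM. NAC_HFD lay above NFD throughout and overlapped HFD only slightly (log2 fold change 0.99 with an SE of 0.13, adjusted p = 0.00328). Its relative Foxo3 was at 15.2, 17.6, 14.8 and 16.9 TPM in NFD. In NAC_HFD, Foxo3 held 22.8, 27.7, 32.7 and 30.1 TPM (log2 fold change 0.77 with an SE of 0.13, adjusted p = 0.00711). The calls of Foxo1 and Foxo3 were kept whichever library was left out and under the 3 other scalings.

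Irs1, an adaptor of the insulin receptor, fell from 13.5 ± 2.59 to 9.04 ± 1.32 TPM (−0.53, adjusted p = 0.0375), and Fbp1, of gluconeogenesis, from 507 ± 52.4 to 372 ± 56.5 TPM (−0.45, adjusted p = 0.0456). Pdk2, which restrains pyruvate oxidation, rose from 34.8 ± 6.97 to 51.3 ± 6.18 TPM with overlap through NFD replicate 3 (0.56, adjusted p = 0.028). Irs1 lost its call without NFD replicate 1, 2 or 3 or NAC_HFD replicate 1, 3 or 4 (0.0603 to 0.093), Fbp1 without NFD replicate 1, 2 or 3 or NAC_HFD replicate 1, 2 or 4 (0.0659 to 0.0998) and Pdk2 without NFD replicate 1, 2 or 4 or NAC_HFD replicate 3 or 4 (0.0525 to 0.0849). Median-of-ratios scaling also ended the calls of Irs1 (adjusted p = 0.0542) and Fbp1 (adjusted p = 0.0603).

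In the lists of inflammatory genes, 1 of 53 and 4 of 35 were called, beside 5.28% of all genes. Of 53 tested interferon response genes, Iigp1, a GTPase of cell-autonomous defence, was called higher (104 to 128 TPM in NFD and 144 to 173 TPM in NAC_HFD, 0.48, adjusted p = 0.0291), 41 had a positive fold change and the median was 0.19. Psmb8, an immunoproteasome subunit, averaged 12.9 ± 2.89 and 17.5 ± 1.30 TPM and did not pass (adjusted p = 0.0962). Of 35 tested acute phase and inflammation genes, Saa4 and Cebpb were called higher and Il1b and Icam1 lower. Il1b, the cytokine interleukin-1 beta, was at 1.88, 2.21, 3.12 and 2.83 TPM in NFD and 3.01, 3.18, 1.27 and 3.03 TPM in the HFD libraries. In NAC_HFD, Il1b held 1.64, 0.610, 0.450 and 0.550 TPM (log2 fold change −0.98 with an SE of 0.22, adjusted p = 0.0253). Icam1, a leukocyte adhesion molecule, fell from 5.37 ± 0.660 to 3.40 ± 0.459 TPM (−0.53, adjusted p = 0.0493), and Cebpb, a transcription factor of the acute phase, rose from 12.5 ± 4.11 to 26 ± 9.37 TPM (0.99, adjusted p = 0.0306).

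The inducible acute phase genes did not pass: Saa1 was at 325, 76.6, 117 and 21.6 TPM in NFD. In NAC_HFD, Saa1 held 53.5, 55.2, 21.6 and 30.2 TPM (adjusted p = 0.569), and Saa3 (adjusted p = 0.429) and Lcn2 (adjusted p = 0.87) were not called. Single libraries ended the calls of Iigp1 (without NFD replicate 1, 2 or 3 or NAC_HFD replicate 2, 3 or 4 (0.0529 to 0.0843)), Il1b (without NFD replicate 3 or 4 or NAC_HFD replicate 2, 3 or 4 (0.0506 to 0.0738)), Icam1 (without NFD replicate 1, 3 or 4 or NAC_HFD replicate 1, 2, 3 or 4 (0.0529 to 0.126)) and Cebpb (without NFD replicate 2, 3 or 4 or NAC_HFD replicate 2, 3 or 4 (0.0505 to 0.0642)). Icam1 was also not called under median-of-ratios scaling (adjusted p = 0.0689) or quantile normalization (adjusted p = 0.0893).

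Markers of the other liver cells did not separate the groups in limma's test. None was called of 16 Kupffer cell, 8 monocyte-derived macrophage, 16 sinusoidal endothelial, 12 stellate cell and 5 cholangiocyte markers tested (0, 1, 1, 2 and 2 at an unadjusted p below 0.05). The same held for 22 genes of fibrosis and matrix (0 unadjusted), 15 hepatocyte markers (1) and 6 erythroid markers (1). T and NK cell and neutrophil markers reached the floor in 2 genes each, and B cell markers in none. Under median-of-ratios scaling and quantile normalization 1 stellate and 1 cholangiocyte marker passed, both higher, and with TPM rescaled 1 sinusoidal endothelial and 1 erythroid marker passed, both lower. As deposited, 11 of the 12 stellate markers had a positive fold change (median 0.14), where 37.5% of all genes tested did. All 6 erythroid markers had a negative fold change (median −0.67). Kupffer cell markers summed to 148.2 to 254 TPM in NAC_HFD and 152.2 to 264 TPM in NFD. Stab1, a scavenger receptor of sinusoidal endothelium, was nearest to a call (18.8 to 23.9 TPM in NFD and 14.8 to 18.1 TPM in NAC_HFD, −0.36, adjusted p = 0.0521). Il1b and Icam1 are read beside these sums, and the part of immune cell number in them was not tested. The galectin gene Lgals1, raised in many forms of liver injury, averaged 3.46 ± 1.40 TPM in NFD, 6.71 ± 3.44 TPM in NAC_HFD and 25.8 ± 6.99 TPM in HFD (adjusted p = 0.266 for NAC_HFD against NFD).

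Among markers of tissues outside the liver, 2 genes were called. Car3, a carbonic anhydrase of fat and also of hepatocytes, was at 855, 808, 391 and 727 TPM in NFD and 1879, 2061, 2053 and 1854 TPM in the HFD libraries. In NAC_HFD, Car3 held 1324, 1249.8, 1781 and 1791 TPM (log2 fold change 1.18 with an SE of 0.21, adjusted p = 0.0102). The defining adipocyte genes Adipoq, Retn and Plin1 reached at most 0.04, 0.11 and 0.07 TPM in the 8 NFD and NAC_HFD libraries. Cela1, an elastase of the pancreas that liver also expresses, rose from 14.5 ± 3.25 to 24.3 ± 5.05 TPM (0.72, adjusted p = 0.0321), while the other 8 pancreatic markers stayed at or below 0.19 TPM in these 8 libraries; its call ended without NFD replicate 1, 3 or 4 or NAC_HFD replicate 3 or 4 (0.0519 to 0.0847). The 12 adipose markers summed to 3788 to 4650.4 TPM in NAC_HFD and 1900 to 3238 TPM in NFD, with Car3 among them.

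Housekeeping lists showed small shifts. Of 40 tested cytosolic ribosomal protein genes, 38 had a negative fold change, and the median was −0.26 (36 and −0.18 under median-of-ratios scaling). Rps19 (−0.49, adjusted p = 0.0176) and Rps18 (−0.48, adjusted p = 0.0231) were called lower, against 3.52% of all genes (7 were under quantile normalization and 9 with TPM rescaled). Rps19 lost its call without NFD replicate 1 (0.0511) and Rps18 without NFD replicate 1 or 3 or NAC_HFD replicate 3 or 4 (0.0517 to 0.0671). Limma called none of 47 nuclear and 13 mitochondrially encoded genes of the respiratory chain (8 and 3 at an unadjusted p below 0.05). The mitochondrial gene mt-Co1 averaged 15401 ± 1034 and 18353 ± 392 TPM (adjusted p = 0.14). Of 20 clock genes 1 was called, beside 5.28% of all genes. Per2, a repressor arm gene, was lower (23.4, 26.6, 22.2 and 21.2 TPM in NFD and 16.6, 19.3, 15.9 and 12.3 TPM in NAC_HFD, −0.53, adjusted p = 0.0243), a call that ended without NFD replicate 1 or 2 or NAC_HFD replicate 3 or 4 (0.0551 to 0.0589). Immediate early genes (19 tested, median 0.38) and glucocorticoid and metallothionein genes (18 tested, median 0.37) had no call by limma, with 4 of each at an unadjusted p below 0.05.

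Single transcripts added differences that the gene sums do not show. Of 18183 mRNA transcripts tested of 53634, 257 were called (1.41%), 154 higher (0.847%) and 103 lower (0.566%), from 236 genes, and 81 of them belong to genes that were not called. With median-of-ratios scaling 279 were higher and 129 lower, and with rescaling 139 were higher and 148 lower. Without NFD replicate 1 the count was 74, and without NAC_HFD replicate 4 it was 44; 35 of the 257 were called whichever library was left out. The transcript sequences are not printed, as the reference tables used here do not hold them.

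The highest fold change among mRNA transcripts was in a minor form of Ahsg, the gene of the liver glycoprotein fetuin-A. ENSMUST00000231328 was at 0, 3.46, 2.05 and 4.89 TPM in NFD and 26.2, 19.1, 35.8 and 124 TPM in the HFD libraries. In NAC_HFD, this transcript held 187, 957, 56.3 and 412 TPM (log2 fold change 6.42 with an SE of 0.84, adjusted p = 0.0159). The main transcript of Ahsg, ENSMUST00000023583, held 3565 to 4950 TPM in NFD and 3369 to 4511 TPM in NAC_HFD, with a log2 fold change of 0.01 (adjusted p = 0.989). Scd1, the desaturase that makes oleate, also had a transcript that was called while the gene was not: ENSMUST00000235741 rose from 29.1, 17, 15.6 and 94.7 to 148, 953, 392 and 935 TPM (log2 fold change 3.97 with an SE of 0.64, adjusted p = 0.0159). The transcript ENSMUST00000221564 of Akr1c20, a steroid reductase, was listed at 0 in all NFD libraries and at 7.29, 7.26, 13.4 and 7.71 TPM in NAC_HFD. The call of the minor Ahsg form was kept whichever library was left out, while that of Scd1 ENSMUST00000235741 ended without NAC_HFD replicate 4 (0.05) and that of Akr1c20 ENSMUST00000221564 without NFD replicate 1, 2, 3 or 4 or NAC_HFD replicate 2, 3 or 4 (0.0516 to 0.0862).

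The lowest fold changes after those of a transcript each of Angptl8 and Cyp4a31 were in Arf4, a GTPase of Golgi traffic, and Mocs2, of molybdenum cofactor synthesis, the cofactor of Aox1. Arf4 ENSMUST00000112318 was at 10.3, 8.29, 9.01 and 6.31 TPM in NFD. In NAC_HFD, this transcript held 2.01, 1.12, 2.43 and 0 TPM (log2 fold change −2.11 with an SE of 0.32, adjusted p = 0.0159). Mocs2 ENSMUST00000166104 was at 10.7, 10, 14.5 and 14.1 and 4.96, 1.33, 1.93 and 1.73 TPM (log2 fold change −2.02 with an SE of 0.31, adjusted p = 0.0159). In neither did the groups overlap, and the call of Mocs2 ENSMUST00000166104 ended without NAC_HFD replicate 4 (0.05). The main transcript of Arf4, ENSMUST00000022429, averaged 44.2 TPM in NFD and 41.1 TPM in NAC_HFD and was not called (−0.09, adjusted p = 0.797).

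In 4 genes, mRNA transcripts were called in opposite directions: Cyb5r3, Glcci1, Ugdh and the unnamed locus MSTRG.6649. In Ugdh, which makes the UDP-glucuronate used to conjugate drugs, ENSMUST00000131263 was listed at 0 in all NFD and all HFD libraries and at 9.03, 4.55, 1.41 and 3.45 TPM in NAC_HFD, while ENSMUST00000031103 fell from 70.7, 50.7, 71.2 and 54.5 to 29.4, 23.8, 37.4 and 38.2 TPM (log2 fold change −0.93 with an SE of 0.18, adjusted p = 0.0337). The fall of Ugdh ENSMUST00000031103 was not called without NFD replicate 1 or 3 or NAC_HFD replicate 1, 2 or 4 (0.0518 to 0.0856). An exact 0 from this kind of quantification can be a failed split of reads between forms. Ugdh ENSMUST00000131263 reached the floor through NAC_HFD alone, so it was tested because NAC_HFD was high. Its call, and with it the opposite directions in Ugdh, is a description for that reason.

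Of 25205 lncRNA transcripts tested of 52170, at a floor and pseudocount of 0.1 TPM, 25 were called (0.0992%), 7 higher (0.0278%) and 18 lower (0.0714%); median-of-ratios scaling gave 9 higher and 11 lower and quantile normalization 8 and 15. The counts without 1 library ran from 2 (NFD replicate 3) to 69 (NAC_HFD replicate 1), and were 3 without NFD replicate 4, 4 without NAC_HFD replicate 4, 6 without NFD replicate 1, 10 without NFD replicate 2, 37 without NAC_HFD replicate 2 and 33 without NAC_HFD replicate 3. Noncoding forms of Psme1 and Col4a1 were the 2 calls kept whichever library was left out. Psme1 ENSMUST00000173544, from the gene of a proteasome activator, was at 0.520, 0.520, 0.620 and 0.620 TPM in NFD. It was listed at 0 in all NAC_HFD libraries (limma, adjusted p = 0.00364). Col4a1 ENSMUST00000130488, from the gene of a basement membrane collagen, was at 0.750, 0.390, 0.880 and 1.08 TPM in NFD and listed at 0 in all HFD and NAC_HFD libraries (limma, adjusted p = 0.00469). It reached the floor only through the NFD libraries. The floor was not set again with a library left out, so the kept call of Col4a1 ENSMUST00000130488 is no further support.

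Other lncRNA transcripts called lower were Rabggta ENSMUST00000226209, listed at 0 in all NAC_HFD libraries and at 0.780, 0.950, 0.800 and 0.590 TPM in NFD (adjusted p = 0.0296), and Depdc7 ENSMUST00000144133 (−2.66, adjusted p = 0.0296). Among those called higher, Cnot1 ENSMUST00000211937 was listed at 0 in all NFD libraries and at 1.28, 3.56, 4.07 and 7.77 TPM in NAC_HFD (adjusted p = 0.0329). Oxr1 NONMMUT023342.2 was also listed at 0 in all NFD libraries and at 0.50, 1.29, 0.51 and 0.73 TPM in NAC_HFD (adjusted p = 0.0386). The noncoding Gpcpd1 ENSMUST00000127712 rose from 2.74, 2.26, 1.84 and 3.06 to 5.85, 6.49, 16.3 and 10.7 TPM (log2 fold change 1.85 with an SE of 0.29, adjusted p = 0.0437). Proscos ENSMUST00000178990 was listed at 0 in all NFD and HFD libraries and at 0.370, 0.330, 0.490 and 0.850 TPM in NAC_HFD, so it reached the floor through NAC_HFD alone. Another form, Proscos ENSMUST00000163731, was called lower. It was at 0.60, 0.30, 0.56 and 0.34 TPM in NFD and listed at 0 in all NAC_HFD libraries (−2.42, adjusted p = 0.0302). Whether reads were split differently between these forms was not tested. Single libraries ended the calls of Rabggta ENSMUST00000226209 (without NFD replicate 1, 2, 3 or 4 or NAC_HFD replicate 4 (0.0637 to 0.102)), Depdc7 ENSMUST00000144133 (without NFD replicate 1, 2, 3 or 4 or NAC_HFD replicate 4 (0.0637 to 0.102)), Cnot1 ENSMUST00000211937 (without NFD replicate 1, 2, 3 or 4 or NAC_HFD replicate 3 or 4 (0.051 to 0.102)), Oxr1 NONMMUT023342.2 (without NFD replicate 1, 2, 3 or 4 or NAC_HFD replicate 2, 3 or 4 (0.051 to 0.112)), Gpcpd1 ENSMUST00000127712 (without NFD replicate 1, 2, 3 or 4 or NAC_HFD replicate 4 (0.0816 to 0.128)) and Proscos ENSMUST00000178990 (without NFD replicate 3 or 4 (0.07 to 0.075)).

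Of the transcripts singled out after their values were seen, the lncRNA Gm26917 ENSMUST00000182520 was at 1311, 519, 113 and 529.9 TPM in NFD and 36.8, 2.68, 0 and 0 TPM in the HFD libraries. In NAC_HFD, this transcript held 0, 0, 0.390 and 0 TPM. All 4 NFD libraries were high and 3 of 4 NAC_HFD libraries were listed at 0; the call of Gm26917 ENSMUST00000182520 ended without NFD replicate 1, 2, 3 or 4 or NAC_HFD replicate 4 (0.0676 to 0.0972). A noncoding form at the Hspa8 locus, NONMMUT068696.2, fell with the gene, from 788, 909, 987 and 701 to 486, 433, 273 and 289 TPM (log2 fold change −1.22 with an SE of 0.19, adjusted p = 0.0376). The call of Hspa8 NONMMUT068696.2 ended under each of the 3 other scalings and without NFD replicate 1, 2, 3 or 4 or NAC_HFD replicate 3 or 4 (0.0547 to 0.108).

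**Figure D5:**
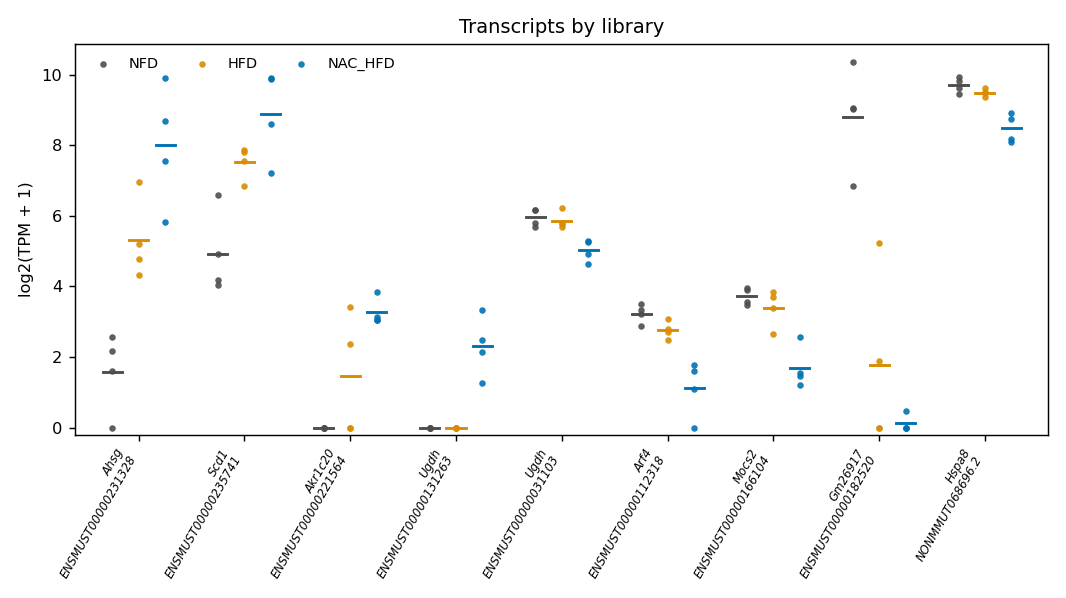
Each point is 1 library on a log2(TPM + 1) axis and each bar the mean of 4, for 9 transcripts of 8 genes in NFD (grey), HFD (orange) and NAC_HFD (blue). The Ugdh pair shows the opposite moves: ENSMUST00000131263 lies at 0 in all NFD and HFD libraries and above 1 TPM in NAC_HFD, and ENSMUST00000031103 is lowest in NAC_HFD. The former reached the floor through NAC_HFD alone.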

How the data were processed

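RNA was sequenced from 12 mouse liver libraries. Per the submitters' processing notes, reads were handled with fastp, HISAT and RSEM on GRCm38, with no versions. The authors deposited TPM values per gene, per mRNA transcript and per lncRNA transcript, and these TPM values were used as deposited; gene positions and promoters are RefSeq's on GRCm38.p6 and matched 95.4% of tested genes. The tables hold no read counts, so depth is unknown and no counting interval can be given.

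From these values, log2(TPM + 1), or log2(TPM + 0.1) for lncRNA, was fitted with limma 3.58.1 in R 4.3.3 (data.table, version 1.17.8; trend and robust options), with 1 mean per group over all 12 libraries, 9 residual degrees of freedom, and Benjamini-Hochberg adjustment over all features tested at 0.05. A feature was tested with 1 TPM (0.1 for lncRNA) in at least 4 of 12 libraries. This filter was set once on all 12 libraries, also where 1 library was left out. A feature at the floor in 1 group alone was tested because that group was high. Fold changes on this scale understate the change of low genes. Library values were compared by exact permutation over 70 splits. The scripts were tested on simulated data.

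The genes named were the 10 highest and 10 lowest called changes without overlap (4 and 4 for each kind of transcript), a panel, and up to 4 members of each list with the smallest p, called or not. In some lists further called members were named. Tubulins and some transcripts were added after their values were seen. Members and lists were chosen with earlier results of these data known. Other scalings, floors, pseudocounts, designs and leaving out each library were tried. Ddit3, listed under 2 gene identifiers, is not named. Replicate numbers did not pair the libraries. Results for some genes are not reported here.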

Additional observations from a re-analysis of the deposited data

Results flagged for a closer look

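In 254 groups of 4 libraries (NFD or NAC_HFD, for the genes listed for the text), 18 (7.09%) held 1 library whose gap to its nearest neighbour divided by the range exceeded Dixon's 95% limit for 4 samples; chance marks about 1 in 20 groups. NFD replicate 3 stood apart in 5 of them, high for Hspb1 (128.3 TPM, others 33.2 to 48.7), Tubb4b (125.3, others 73.1 to 78.5), Asl (744.6, others 319.9 to 373), Pdk2 (45.3, others 30.9 to 31.7) and Dgat1 (11.1, others 9.71 to 9.90). NFD replicate 2 was high for Serpina12 (7.13 TPM, others 3.70 to 4.03), Srebf1 (27.4, others 12.7 to 14.7) and Pdk4 (1.57, others 0.93 to 0.99). NFD replicate 4 was low for Tubb5 (20.8 TPM, others 28.7 to 29.5) and Rps19 (97.0, others 120.7 to 124.8). NFD replicate 1 was high for Gna14 (1.33 TPM, others 0.88 to 0.94). In NAC_HFD, replicate 1 was high for Tuba1c (26.4 TPM, others 16.2 to 17.1) and Il1b (1.64, others 0.45 to 0.61). Replicate 2 was high for Elovl6 (21.7 TPM, others 12.2 to 12.8) and Mup21 (218.3, others 100 to 108.6) and low for Mogat1 (0.31, others 0.88 to 0.92). Replicate 3 was high for Hsf2 (14.8 TPM, others 11.8 to 12.3), and replicate 4 for Sqle (17.2, others 0.77 to 3.46).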

How the results depend on the processing

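The count of called genes (601) fell to 289 with no floor and to 188 with the spread taken from the 8 NFD and NAC_HFD libraries alone, and lay between 211 and 618 with 1 library left out. mRNA transcripts called (257) numbered 38 with no floor, 408 with median-of-ratios scaling, 13 with the 8 libraries alone and 44 to 315 with 1 library left out. lncRNA transcripts called (25) numbered 16 with a pseudocount of 1, 3 with no floor, 79 with a floor of 1 TPM, 13 with the 8 libraries alone, 12 without limma's trend and robust options, and 2 to 69 with 1 library left out. The numbers that libraries share across groups did not pair them: correlations of same-numbered deviations were 0.005, 0.015, 0.126 and −0.055. With a replicate block 406 genes were called, 371 of them among the 601, with 30 mRNA and 1 lncRNA transcripts; Cyp8b1 and Cth, not called, passed with the block (0.0404 and 0.0442).

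Of 1884 values of 112 called genes and transcripts under these alternatives, 1424 kept their side of the threshold, 460 lost it and 0 changed direction; the cause was not tested. Of 693 values of 41 genes not called, 18 passed, at adjusted p of 0.0164 to 0.0491. They were those of Cyp4a14, Cyp8b1 and Thrsp without NFD replicate 2, Csad and Psmb8 without NFD replicate 3, Cdo1 and Mup21 without NAC_HFD replicate 2, Cyp8b1 and Mvd without NAC_HFD replicate 4, Acot12 without NAC_HFD replicate 1 and under 2 scalings, Stab1 with a floor of 5 TPM and with TPM rescaled, and those given for Cdo1, Cyp8b1 and Cth under other settings. Of 677 list medians under the alternatives, 49 changed sign and 45 moved by more than the spread between libraries. Among those printed, the median of fatty acid oxidation fell to −0.06 (without NAC_HFD replicate 4), that of sterol efflux to −0.04 (without NAC_HFD replicate 3) and that of cysteine metabolism rose to 0.05 (median-of-ratios). The tubulin median was −0.18 with no floor and −0.77 with a floor of 5 TPM, and that of immediate early genes 0.14 with no floor and 0.19 to 0.24 without NFD replicate 1 or 3 or NAC_HFD replicate 3. Directions turned in genes not called: Gclc to 0.048 with median-of-ratios scaling and Pparg to −0.023 with a pseudocount of 0.1. With 1 library left out, Cpt1a ran from −0.032 (turned without NFD replicate 1 or 2 or NAC_HFD replicate 4) to 0.12, Cyp7a1 from −0.51 to 0.066 (without NFD replicate 1), Acaca from −0.34 to 0.11 (without NFD replicate 2), Gclc from −0.17 to 0.17 (positive without NFD replicate 3 or NAC_HFD replicate 1 or 2) and Pparg from −0.20 (negative without NFD replicate 2 or NAC_HFD replicate 1, 3 or 4) to 0.39. The difference in mitochondrial share ran from −0.011 (without NFD replicate 3) to 1.16 percentage points. TPM values carry no depth, so low genes cannot be given a counting error.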

Other observations

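Some genes outside the lists also separated the groups; they were chosen after their values were seen. Fgf1, a growth factor that lowers blood glucose when given to mice, held 73.3, 83, 64.3 and 63 TPM in NFD. The HFD libraries held 103, 88.8, 107 and 92 TPM and the NAC_HFD libraries 126, 125, 115 and 110.4 TPM (limma, log2 fold change 0.75 with an SE of 0.11, adjusted p = 0.00386 for NAC_HFD against NFD). Every NAC_HFD library exceeded every NFD and HFD library, which for HFD is a description of levels only. Slc8b1, the mitochondrial sodium and calcium exchanger, rose from 13.7, 10.9, 12.1 and 12.8 to 25.3, 27.3, 35.5 and 22 TPM (1.07, adjusted p = 0.00328). Acot11, an acyl-CoA thioesterase, rose from 0.995 ± 0.147 to 3.55 ± 1.11 TPM (1.16, adjusted p = 0.00659), with HFD at 3.79 TPM, and Ido2, of tryptophan breakdown, from 18.4 ± 2.90 to 34.2 ± 3.08 TPM (0.87, adjusted p = 0.00328), with HFD at 34.4 TPM. The sterol-binding protein gene Osbpl5 (1.06, adjusted p = 0.00386) and the G protein gene Gna14 (1.08, adjusted p = 0.00711) were also higher. Rnf43, a ubiquitin ligase that removes Wnt receptors, fell from 18.1, 21.2, 20.6 and 17.7 to 11.8, 8.10, 11 and 9.33 TPM (log2 fold change −0.89 with an SE of 0.11, adjusted p = 0.00328), and Aldoa, the aldolase of glycolysis, from 100 ± 26.8 to 57.3 ± 4.83 TPM (−0.76, adjusted p = 0.0129). These 8 calls were kept whichever library was left out.

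A further 3 genes called lower, not on the chaperone list, were also chosen after their values were seen. Hsf2, a heat shock transcription factor, fell from 19.2, 23.3, 19.8 and 17.2 TPM to 11.8, 11.8, 14.8 and 12.3 TPM (−0.61, adjusted p = 0.0176; lost without NAC_HFD replicate 4 (0.0521)). Zfand2a, a proteasome-associated protein induced by proteotoxic stress, fell from 7.48 ± 1.37 to 4.59 ± 0.318 TPM (−0.59, adjusted p = 0.0171; lost without NFD replicate 1 (0.0505)), and Cacybp, which binds S100 proteins and HSP90 partners, from 24.2 ± 1.95 to 15.4 ± 2.84 TPM (−0.63, adjusted p = 0.0134).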
